A study of Mus musculus with 7 samples.

Results

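The genes described here are those that carry a cell from G1, the gap before DNA synthesis, into S phase, when DNA is copied: 46 mouse genes for origin licensing, the replicative helicase, the DNA polymerases and their accessory factors, deoxynucleotide supply, E2F and cyclin E. They were chosen by function and looked up by gene identifier in a table of 3389 genes, in which 36 of the 46 are listed. The samples were neural stem cells grown from the mouse subventricular zone, a germinal region of the brain, in medium with EGF and FGF-2. In 4 samples short hairpin RNA against KAP1 was nucleofected (shKAP1), and 3 samples are labelled as control cells. KAP1, the product of Trim28, is a corepressor that KRAB zinc finger proteins bring to DNA, and the comparison asks which transcripts differ when it is reduced. The labels give neither the strain, sex or age of the animals, nor the hairpin sequence, the time after nucleofection, what the controls received, or whether samples came from separate animals or cultures.

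Replication starts at origins that were prepared beforehand. In G1 the origin recognition complex, Cdc6 and Cdt1 load the ring-shaped helicase of the subunits Mcm2 to Mcm7 onto DNA, and at the start of S phase Cdc45 and the GINS complex join it and switch it on. Primers are then laid by polymerase alpha and primase and extended by polymerases epsilon and delta, which are held to DNA by the clamp PCNA, and E2F transcription factors, released once a cell commits to divide, drive transcription of most of these genes with the help of cyclin E and its kinase. In the subventricular zone, stem cells divide rarely and their transit-amplifying progeny divide fast, and EGF and FGF-2 keep both dividing in culture.

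All 36 listed genes were lower in shKAP1 and none was higher. They are 78.3% of the 46, against 13.7% of the 12905 genes with an adjusted p that were listed as lower and 12.6% that were listed as higher. The median log2 fold change over the 36 was -0.30, which is 81.0% of the control level, and the range ran from -0.49 for Ccne2 to -0.14 for Rpa1. The listed changes were thus small, between 1.10-fold and 1.41-fold, and none reached the 2-fold mark. The lower end of this range is set in part by the listing limit, so likeness in size is not read as a result. Stricter limits left 31 of the 46 at an adjusted p of 0.01, where 9.51% of all genes were lower. At a Bonferroni limit of 0.05 there were 18 (4.15%), and at a change of at least 1.2-fold 27 (7.57%). With a 95% interval wholly beyond 1.2-fold there were 6 (2.48%), and with a mean normalized count of at least 1000 there were 34 (11.3%). All these shares are of the 12905 genes, whatever their count, so 11.3% is not the share among genes that reach 1000. Over all 1768 listed lower genes the median log2 fold change was -0.28, but sizes differ with count. Listed genes were therefore cut into 5 quintiles by mean normalized count. In the highest, the median was -0.29 for 10 replication genes and -0.21 for other lower genes. Quintiles 4, 3 and 2 gave -0.34 against -0.23 (8 genes), -0.30 against -0.27 (13) and -0.30 against -0.31 (5). The lowest quintile held no replication gene, and its lower genes had a median of -0.51. The 10 genes not listed are Orc1, Orc6, Cdc6, Gins2, Gins3, Prim1, Rfc3, Ccne1, E2f1 and E2f2. They either missed the adjusted p of 0.05 or received none, so nothing is known of their change.

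The values come from the authors' deposited table, whose lines give, per listed gene, the mean normalized count over samples, the log2 fold change, its standard error (SE) and the adjusted p of DESeq2. Single samples have no column in it, so the overlap of the samples of each group could not be examined, library depth is unknown, and the error given for each gene is the SE of the fit. P-values measure the spread between these samples, which may be technical. Trim28 itself had a log2 fold change of -1.17 (SE 0.05, DESeq2 adjusted p = 1.78e-101) in the authors' deposited table, and since the direction of the comparison is not named there, this gene set the reading of negative as lower in shKAP1. In bulk RNA a smaller share of cells in S phase and less of these transcripts per cell cannot be told apart.

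**Figure D1:**
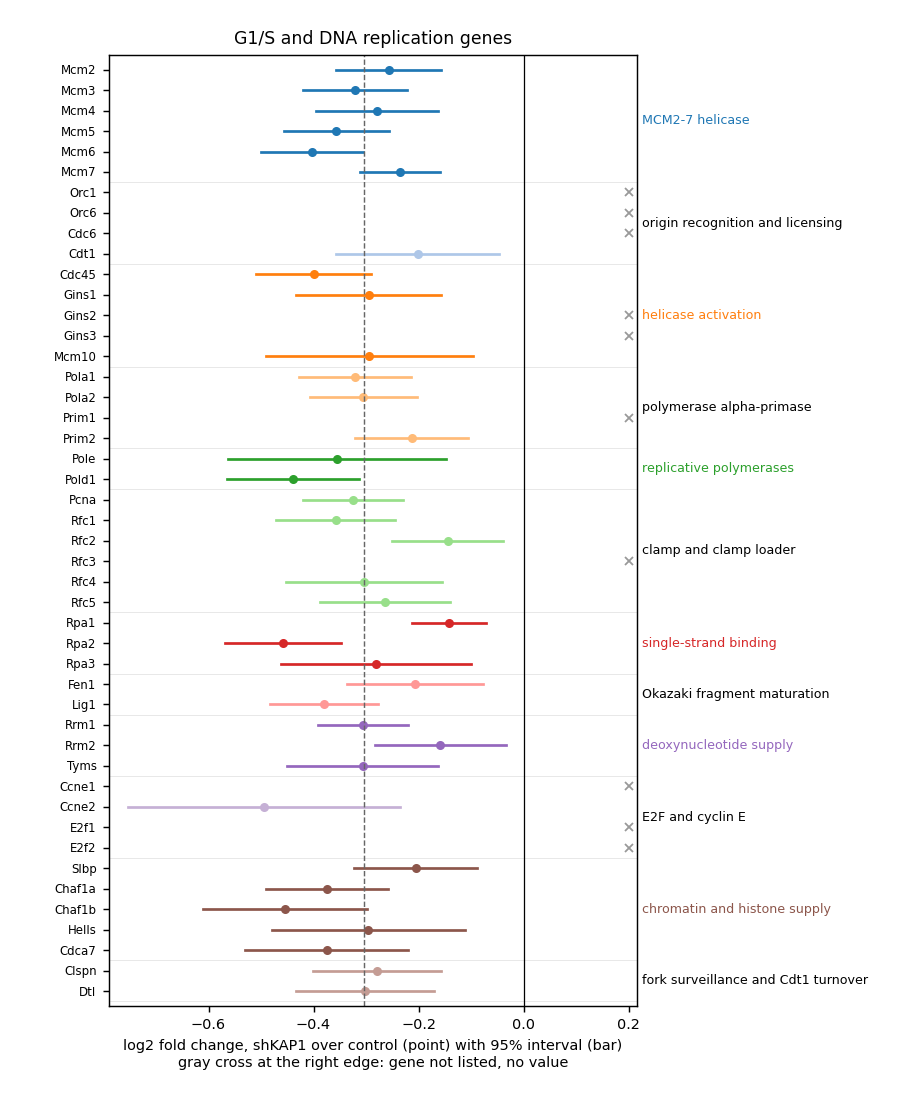
Log2 fold change, shKAP1 over control (horizontal axis), of each of the 46 genes, grouped by role. Points are the values of the authors' deposited table, bars are 95% intervals from the SE, the dashed line is the median of -0.30, and a gray cross at the right edge marks a gene not listed; all 36 points lie left of 0.

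Promoter sequence is shown because the genes moved in one direction and E2F is the transcription factor family best known for binding them. RefSeq promoter windows of 300 bases, 250 before and 50 after the start site (build GRCm38.p6), were matched for 39 of the 46 genes and were not matched for Mcm4, Gins1, Gins2, Prim2, Pole, Rfc2 and Ccne2. The E2F motif was searched as TTTCCCGC, TTTGGCGC, TTTCGCGC or TTTGCCGC on both strands. It was found in 17 of 39 genes, or 43.6%, against 3.29% of 17492 protein-coding genes and 2.61% of all 27025 genes with a window, counting a gene once if any of its windows held it. The 4 stretches below are from the gene with the smallest adjusted p in each role group among those with a motif in the 160 bases before the more upstream of the RefSeq and GENCODE starts. They read 5′ to 3′ along the gene, end just before that start, and have the motif in capitals.
Mcm6: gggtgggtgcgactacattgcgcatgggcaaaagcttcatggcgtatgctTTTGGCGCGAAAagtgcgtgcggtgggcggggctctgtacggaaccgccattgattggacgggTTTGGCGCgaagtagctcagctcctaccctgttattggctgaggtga
Pola1: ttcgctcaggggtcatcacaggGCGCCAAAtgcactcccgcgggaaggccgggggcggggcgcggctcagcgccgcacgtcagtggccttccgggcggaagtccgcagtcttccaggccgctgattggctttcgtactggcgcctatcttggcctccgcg
Cdca7: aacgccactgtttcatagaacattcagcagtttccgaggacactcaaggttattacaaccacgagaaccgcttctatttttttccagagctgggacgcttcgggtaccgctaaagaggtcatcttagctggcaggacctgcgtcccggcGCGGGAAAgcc
Dtl: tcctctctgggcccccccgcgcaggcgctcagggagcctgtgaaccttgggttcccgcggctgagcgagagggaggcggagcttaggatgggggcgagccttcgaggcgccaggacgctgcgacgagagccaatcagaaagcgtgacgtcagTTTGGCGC

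The Mcm6 stretch is chr1:128359706-128359865, minus strand, and holds 3 matches, the upstream pair of which overlap on opposite strands as TTTGGCGC and TTTCGCGC. They begin at -110, -106 and -47, counted back from -1 as the base before the RefSeq start site, as for all positions here. The Pola1 stretch is chrX:93632156-93632315, minus strand, with a match at -138 that reads TTTGGCGC on the opposite strand. The Cdca7 stretch is chr2:72475999-72476158, plus strand, with a match at -71 that reads TTTCCCGC on the opposite strand. The Dtl stretch is chr1:191575545-191575704, minus strand, and its match at -8 abuts the start site.

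The motif was present in 12 of 30 listed genes with a window, or 40.0%, and in 5 of 9 genes not listed, or 55.6%, namely Orc1, Cdc6, Gins3, Rfc3 and E2f2. Among listed genes the median log2 fold change was -0.32 for the 12 with the motif and -0.30 for the 18 without it. The 23 matches in the 17 genes began between -165 and 40 from the start site, 16 of them within 100 bases of it. The CCAAT box, searched as CCAAT, was found in 25 of 39 genes (64.1%, against 42.3% of protein-coding genes). The CHR element known from genes of mitosis, searched as TTTGAA, was found in 5 of 39 (12.8%, against 18.5%). A match is a description of these letters and does not show binding.

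The MCM helicase was lower in every subunit. All 6 genes of the ring are listed, with log2 fold changes in the authors' deposited table of -0.40 (SE 0.05, DESeq2 adjusted p = 7.58e-14) for Mcm6, -0.36 (SE 0.05) for Mcm5 and -0.32 (SE 0.05) for Mcm3. Mcm4 at -0.28 (SE 0.06), Mcm2 at -0.26 (SE 0.05) and Mcm7 at -0.23 (SE 0.04) followed in the authors' deposited table. In percent of control, Mcm6 stood at 75.6 (95% interval 70.7 to 80.9) and Mcm7 at 85.0 (80.6 to 89.6). These intervals overlap narrowly, which does not show that the subunits changed alike. Differences between subunits of the ring were not tested. Per kilobase of the longest annotated coding transcript, the mean normalized count over samples ran from 2324 for Mcm4 and 2435 for Mcm6 to 3502 for Mcm3 and 3852 for Mcm7. The Mcm6 gene (ENSMUSG00000026355.11) occupies bases 128331590 to 128359664 of chromosome 1, minus strand (GRCm38). Mcm7 shares its locus with the microRNA genes Mir25, Mir93 and Mir106b on the same strand.

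Of 4 origin recognition and licensing factors, which load the ring, 1 (25%) is listed, beside 13.7% listed as lower over all genes. Cdt1, the loader that is destroyed when S phase begins, is the 1 listed gene of 4, at a log2 fold change of -0.20 (SE 0.08, DESeq2 adjusted p = 0.0435) in the authors' deposited table. Its adjusted p is among the 3 nearest to the threshold, beside Rrm2 at 0.0482 and Rfc2 at 0.0303 in the authors' deposited table. Orc1, the origin recognition subunit that cycles with the cell, Orc6 and Cdc6 are not listed. At an adjusted p of 0.01 no gene of this group would be called.

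Of the 5 genes that activate the loaded helicase, 3 were lower, beside 13.7% lower over all genes. The gene Cdc45, whose product rides with the helicase at the fork, had a log2 fold change of -0.40 (SE 0.06, DESeq2 adjusted p = 5.58e-11) in the authors' deposited table, and 75.8% of the control level (95% interval 70.3 to 81.8). In the authors' deposited table the GINS subunit gene Gins1 stood at -0.29 (SE 0.07) and Mcm10, which helps the helicase start unwinding, at -0.29 (SE 0.10, DESeq2 adjusted p = 0.0169). Gins2 and Gins3, partners of Gins1 in the same complex, are not listed. Per kilobase, the mean normalized counts of Cdc45 (846), Gins1 (888) and Mcm10 (518) were below those of every subunit of the ring.

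Of the 6 polymerase and primase genes, 5 were lower, beside 13.7% lower over all genes. Pold1, the catalytic subunit of polymerase delta, which copies the lagging strand, had a log2 fold change of -0.44 (SE 0.06, DESeq2 adjusted p = 3.14e-10) in the authors' deposited table, or 73.8% of control (95% interval 67.6 to 80.4). Pole, the catalytic subunit of the leading-strand polymerase epsilon, stood at -0.36 with a wider error (SE 0.11, DESeq2 adjusted p = 0.00511) in the authors' deposited table. In the primer-making complex, the catalytic subunit Pola1 was at -0.32 (SE 0.05), its partner Pola2 at -0.31 (SE 0.05) and the large primase subunit Prim2 at -0.21 (SE 0.06) in the authors' deposited table. The catalytic primase gene Prim1 is not listed. The Pold1 gene (ENSMUSG00000038644.14) occupies bases 44532746 to 44548849 of chromosome 7, minus strand (GRCm38). All 5 values have intervals that overlap one another.

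The sliding clamp and its loader were lower in 5 of 6 genes, beside 13.7% lower over all genes. Pcna, the clamp and the most abundant transcript of all 36 per kilobase at 13134, had a log2 fold change of -0.32 (SE 0.05, DESeq2 adjusted p = 9.17e-10) in the authors' deposited table. In the authors' deposited table Rfc1, the large subunit of the loader that opens the clamp, was at -0.36 (SE 0.06), Rfc4 at -0.30 (SE 0.08) and Rfc5 at -0.26 (SE 0.06). Rfc2 at -0.14 (SE 0.05) in the authors' deposited table was the smallest of these, at 90.5% of control (95% interval 84.1 to 97.3), and Rfc3 is not listed. The annotation holds Pcna pseudogenes, Pcna-ps1 and Pcna-ps2, and reads shared with them may have been split.

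Replication protein A, which coats single-stranded DNA, showed the widest gap between subunits among the complexes of the 46 genes. The middle subunit gene Rpa2 had a log2 fold change of -0.46 (SE 0.06, DESeq2 adjusted p = 7.01e-14) in the authors' deposited table, the smallest adjusted p of the 36. In GRCm38 the Rpa2 gene (ENSMUSG00000028884.14) occupies bases 132768332 to 132778752 of chromosome 4, on the plus strand. The large subunit gene Rpa1 stood at -0.14 (SE 0.04, DESeq2 adjusted p = 0.000755) and the small subunit gene Rpa3 at -0.28 (SE 0.09) in the authors' deposited table. In percent of control, Rpa2 was at 72.8 (95% interval 67.4 to 78.6) and Rpa1 at 90.7 (86.3 to 95.2), and these intervals do not overlap. Of the 3 transcripts Rpa1 was the most abundant per kilobase, with a mean normalized count of 2551 against 1651 for Rpa2 and 1389 for Rpa3.

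Both genes that finish Okazaki fragments, the short pieces of the lagging strand, were lower. Lig1, the ligase that seals them, was at a log2 fold change of -0.38 (SE 0.05, DESeq2 adjusted p = 3.56e-11) and Fen1, the nuclease that trims their flaps, at -0.21 (SE 0.07) in the authors' deposited table. Their intervals, 71.6 to 82.6% of control for Lig1 and 79.2 to 94.7% for Fen1, overlap.

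All 3 genes of deoxynucleotide supply were lower. The large subunit gene of ribonucleotide reductase, Rrm1, had a log2 fold change of -0.31 (SE 0.04, DESeq2 adjusted p = 1.37e-10) in the authors' deposited table, and Tyms, which makes thymidylate, the same value with a larger error (SE 0.07). Rrm2, the small subunit that is made in S phase, was at -0.16 (SE 0.06, DESeq2 adjusted p = 0.0482) in the authors' deposited table, the value nearest the threshold among the 36. Rrm2 was abundant, at 9080 mean normalized counts per kilobase against 4937 for Rrm1 and 629 for Tyms. The annotation holds a Tyms pseudogene, Tyms-ps.

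Of the E2F and cyclin E genes, which switch this programme on, 1 of 4 is listed, beside 13.7% listed as lower over all genes. Ccne2, a cyclin E gene, had the most negative log2 fold change of the 36, -0.49, but also the largest error (SE 0.13, DESeq2 adjusted p = 0.00149) in the authors' deposited table. Its interval, 59.3 to 84.9% of control, spans most of the range seen for the other genes. Ccne1, the other cyclin E gene, and the activator genes E2f1 and E2f2 are not listed.

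All 5 genes that supply histones and chromatin behind the fork were lower. Chaf1b at -0.45 (SE 0.08, DESeq2 adjusted p = 3.29e-07) and Chaf1a at -0.37 (SE 0.06) in the authors' deposited table encode subunits of the assembly factor that deposits histones on new DNA. Cdca7 at -0.37 (SE 0.08) and Hells at -0.30 (SE 0.09) in the authors' deposited table encode a remodelling pair that helps keep DNA methylated. Slbp, which binds the stem-loop of replication-dependent histone messages, was at -0.21 (SE 0.06) in the authors' deposited table. Clspn, which signals stalled forks to the checkpoint kinase, was at -0.28 (SE 0.06), and Dtl, which marks Cdt1 for destruction in S phase, at -0.30 (SE 0.07) in the authors' deposited table.

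Set in order, the 36 genes run from -0.49 to -0.14, and whether they fall into classes was not tested. The 95% interval of 30 genes holds the common median of -0.30. Those of Mcm6, Pold1 and Rpa2 lie wholly below it, and those of Rfc2, Rpa1 and Rrm2 wholly above it. The quartiles are -0.36 and -0.26, and the median SE is 0.06. The table leaves out weaker changes by construction, since the smallest Wald statistic listed is 2.48 in size. At the median SE of these genes a log2 change under 0.15 would not have been listed, and at the largest SE one under 0.33.

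**Figure D2:**
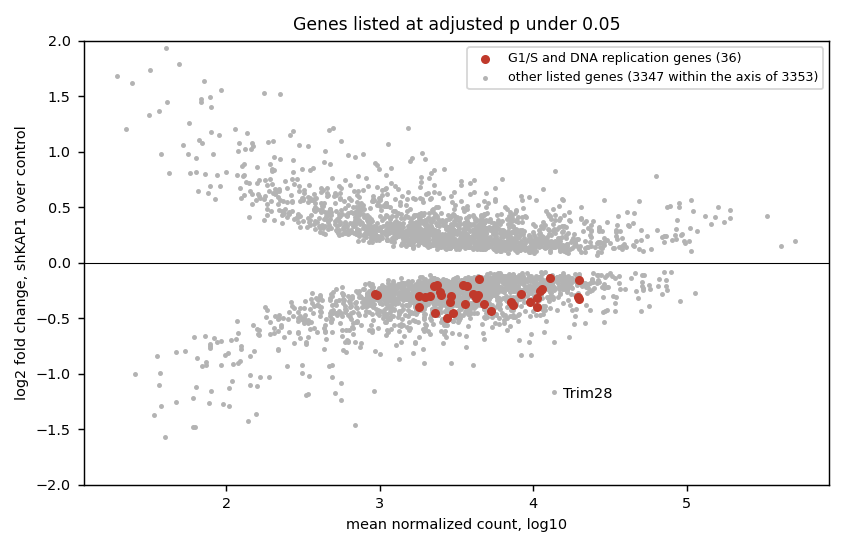
Log2 fold change, shKAP1 over control (vertical axis), against the mean normalized count on a log10 scale (horizontal axis) for genes listed at adjusted p under 0.05 in the authors' deposited table. The 36 replication genes (red) lie between -0.49 and -0.14, at counts of 931 to 19938, within the cloud of other lower genes (gray); Trim28 lies apart at -1.17.

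The plot of level against change shows where these genes lie in the table. Their median mean normalized count was 3880, against 2885 over all listed genes, and 34 of 36 exceeded 1000. By p-value 15 of the 36 rank among the first 500 genes of the table and 2, Rpa2 and Mcm6, among the first 100. Within the 36 genes Spearman's rho of level with log2 fold change was 0.07. These points share the same libraries and are no independent replicates.

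Other genes of the pathway, 78 in 5 lists, moved mostly the same way, with 43 lower, 4 higher and 31 not listed. The lists hold the further origin, fork, nucleotide and regulator genes that the 46 leave out. Beside the background of 13.7%, 55.1% of them were listed as lower.

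Of 15 further origin and helicase genes, 8 were lower, none was higher and 7 are not listed, beside 13.7% lower and 12.6% higher over all genes. The median over the 8 was -0.31 on the log2 scale. Topbp1, which helps bring Cdc45 to the helicase, was at -0.29 (SE 0.04, DESeq2 adjusted p = 2.49e-09), and Dbf4, the activating subunit of the kinase that fires origins, at -0.39 (SE 0.06), in the authors' deposited table. Gmnn, the inhibitor of Cdt1, was at -0.32 (SE 0.07) and the origin recognition gene Orc5 at -0.24 (SE 0.06) in the authors' deposited table.

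Of 21 further fork genes, 14 were lower, 1 was higher and 6 are not listed, beside 13.7% lower and 12.6% higher over all genes. Pole2 at -0.47 (SE 0.08, DESeq2 adjusted p = 9.63e-08) and Pole3 at -0.26 (SE 0.05) in the authors' deposited table are subunits of polymerase epsilon. Mms22l, which acts at damaged forks, was at -0.33 (SE 0.07) and the histone chaperone gene Asf1b at -0.36 (SE 0.08) in the authors' deposited table. The higher gene is Pold4, the smallest subunit of polymerase delta, at 0.35 (SE 0.10, DESeq2 adjusted p = 0.00339) in the authors' deposited table. The other subunits of that polymerase were lower, with Pold2 at -0.22 (SE 0.05) and Pold3 at -0.26 (SE 0.08) beside Pold1 in the authors' deposited table; Pold2 and Pold3 were named after their values were seen. Pold4 stood at 128% of control, against 73.8% for Pold1, and their intervals do not overlap.

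Of 12 further nucleotide genes, 7 were lower and none was higher, beside 13.7% lower and 12.6% higher over all genes. Tk1, the thymidine kinase of S phase, was at -0.45 (SE 0.06, DESeq2 adjusted p = 7.35e-11) in the authors' deposited table. Dut, which removes dUTP, was at -0.33 (SE 0.06) and the deoxycytidine kinase gene Dck at -0.31 (SE 0.06) in the authors' deposited table.

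**Figure D3:**
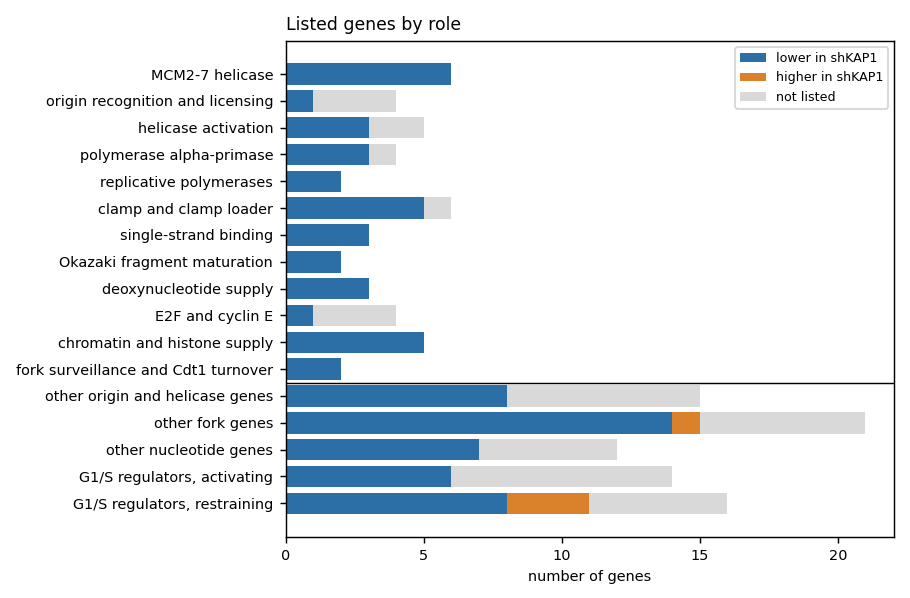
Number of genes (horizontal axis) lower in shKAP1 (blue), higher in shKAP1 (orange) or not listed (gray) at adjusted p under 0.05 in the authors' deposited table, by role; the 46 genes stand above the line and the 78 other pathway genes below it. The 4 higher genes stand in the fork list (1) and in the list of restraining regulators (3).

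Further regulators of the G1/S step were listed in part. Of 14 activating genes 6 were lower, none was higher and 8 are not listed, beside the shares of 13.7% lower and 12.6% higher over all genes. Ccna2, the cyclin of S phase, was at -0.46 (SE 0.07, DESeq2 adjusted p = 3.80e-10) in the authors' deposited table. Skp2, which marks the inhibitor p27 for destruction, was at -0.35 (SE 0.06), Cdk2, the kinase partner of cyclin E, at -0.28 (SE 0.06) and Tfdp1, the dimer partner of E2F, at -0.22 (SE 0.06) in the authors' deposited table. The D-type cyclin genes Ccnd1, Ccnd2 and Ccnd3 are among those not listed, with Cdk6, E2f3, Tfdp2, Myc and Mycn.

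Of 16 restraining genes 8 (50%) were lower, 3 higher and 5 not listed, beside 13.7% lower over all genes. Read against 12.6% of all genes, 3 higher of 16 is near the background share, and the higher genes are given as single values. Higher were E2f6, a repressive E2F, at 0.35 (SE 0.05, DESeq2 adjusted p = 9.38e-11), Cdkn1a, the inhibitor p21, at 0.33 (SE 0.07) and Cdkn2b, the inhibitor p15, at 0.33 (SE 0.10) in the authors' deposited table. Lower were the inhibitor gene Cdkn2c at -0.47 (SE 0.07), the repressive E2F gene E2f8 at -0.41 (SE 0.07) and the pocket protein gene Rbl1 at -0.27 (SE 0.05) in the authors' deposited table. E2f7, the closest relative of E2f8, at -0.61 (SE 0.13), the p27 gene Cdkn1b at -0.34 (SE 0.09) and the p57 gene Cdkn1c at -1.36 (SE 0.38) were lower too in the authors' deposited table, and were named after their values were seen. Cdkn1c had a mean normalized count of only 157, and Cdkn1a one of 42039.

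**Figure D4:**
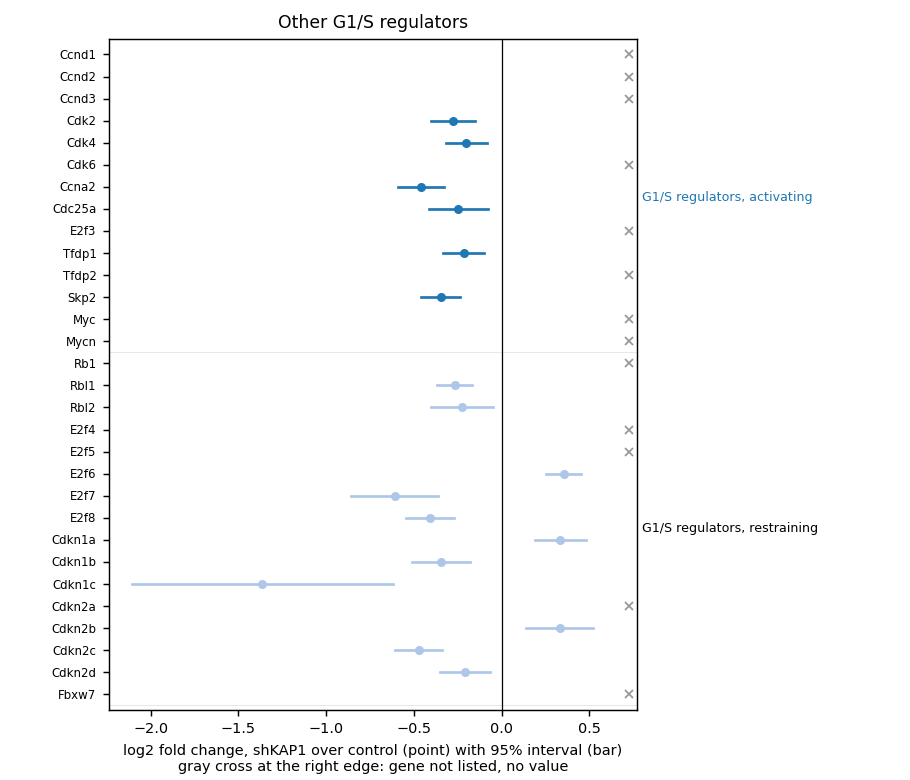
Log2 fold change, shKAP1 over control (horizontal axis), of 14 activating and 16 restraining regulators of the G1/S step. Points are the values of the authors' deposited table, bars 95% intervals and gray crosses at the right edge genes not listed; E2f6, Cdkn1a and Cdkn2b lie right of 0 and Cdkn1c lies farthest left at -1.36.

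Direction in the table moves with base composition, so the replication genes were set beside listed genes of like GC content. All 36 were lower, so every quintile had to hold lower replication genes only, and just the shares of other listed genes can vary. The other listed genes include the other pathway genes described above. Among transcripts of 31.9% to 44.7% GC, the lowest quintile, 8 of 8 replication genes were lower, against 74.6% of 670 other listed genes. Among those of 56.2% to 69.1% GC, the highest quintile, 3 of 3 were lower, namely Mcm2, Cdt1 and Pold1, against 29.6% of 675 other listed genes. In the 3 quintiles between, 8 of 8, 9 of 9 and 8 of 8 were lower, against 62.5%, 53.8% and 37.97% of other listed genes. Within the 36 genes Spearman's rho of GC content with log2 fold change was 0.0021.

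**Figure D5:**
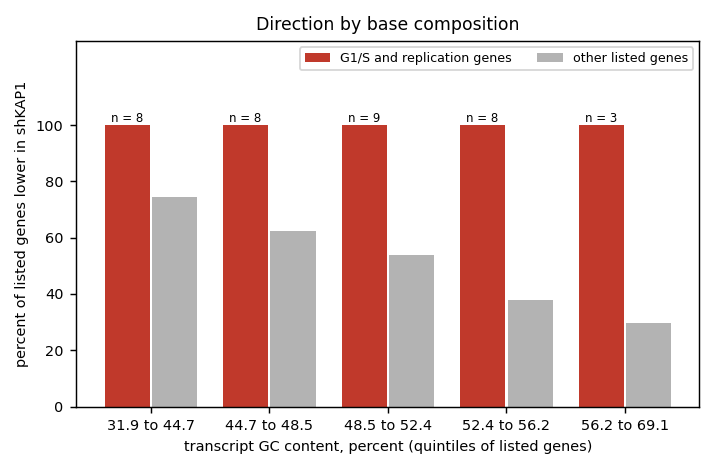
Percent of listed genes lower in shKAP1 (vertical axis) by quintile of transcript GC content (horizontal axis), for the 36 replication genes (red, with their number) and the other listed genes (gray). The gray bars fall from 74.6% to 29.6% with rising GC content, and the red bars are at 100% by construction, since all 36 were lower.

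Markers of cell types give the setting of these values. Of 8 neural stem cell markers, 4 were higher (Nes, Vim, Fabp7 and Slc1a3), with log2 fold changes of 0.19 to 0.48 in the authors' deposited table, and none was lower, beside 12.6% higher over all genes. Of 5 neuronal markers 2 were lower, Dcx at -0.62 (SE 0.18) and Map2 at -0.11 (SE 0.04) in the authors' deposited table, beside 13.7% lower over all genes. None of 4 microglial and 4 endothelial markers is listed. Olig2 at 0.20 was 1 of 4 oligodendrocyte markers listed, Acta2 at 1.03, with a mean normalized count of 133, 1 of 4 mural and fibroblast markers, and Foxj1 at 0.59 1 of 2 ependymal markers, in the authors' deposited table. Beside 12.6% higher over all genes, Olig2, Acta2 and Foxj1 are given as single values and not as changes of a cell type. The part of all these markers in the lower values of the replication genes was not tested.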

How the data were processed

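RNA of 4 shKAP1 and 3 control samples was sequenced after poly(A) selection, with dUTP marking the strand, per the labels' protocols. Tools named in the submitters' processing notes are kallisto, DESeq2 and Trim Galore (0.4.4), with the build GRCm38. Of the other versions, the transcript annotation, the model and the libraries fitted, the record is: not given in the sources used here. Per the file headers, the authors' deposited table of 1 comparison holds the mean normalized count as a signal, the log2 fold change and its SE, a signed fold, the Wald score, the p-value and the adjusted p-value. Only genes with adjusted p under 0.05 are listed. The number of genes with an adjusted p, 12905, was recovered from adjusted p times rank over p (within 0.01 in 85.2% of lines) and the step was tested on simulated data. Nothing was refitted. The planned count test did not apply, since no values per sample are held.

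Symbols, transcript GC content (median over transcripts), longest coding transcript length and positions came from GENCODE M21 (GRCm38), where 3388 of 3389 identifiers matched without version, and promoters from RefSeq (GRCm38.p6). Intervals of 95% use a normal approximation (scipy 1.17.1). All 46 genes were named by rule, with up to 4 listed genes per further list by smallest adjusted p and any against its list's direction. 1 gene of the nucleotide list that the rule would name is not reported here. Genes and lists were chosen with earlier results of these data known, so lists are described by counts and medians without a test. Of the 46 genes, 18 overlap a gene on the opposite strand, and whether counting used strand is not stated.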

Additional observations from a re-analysis of the deposited data

How the results depend on the processing

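Each limit takes a subset of the same deposited fold changes, so none could turn a direction, and the counts alone could move. The 36 lower genes became 18 at the Bonferroni limit and 6 where the interval had to lie beyond 1.2-fold, by construction fewer, and 27 to 34 at the other limits. The 6 are Mcm6, Cdc45, Pold1, Rpa2, Lig1 and Chaf1b, and the 5 lost at an adjusted p of 0.01 are Cdt1, Mcm10, Rfc2, Rpa3 and Rrm2. Matching with identifier versions or exact symbols left 36. The median log2 fold change of -0.30 became -0.31 at 0.01 and at the count minimum, -0.29 as a weighted mean and -0.30 without the regulator and chromatin genes. Not run, for want of single-sample values, were other normalizations, tools and filters and leaving out replicates. Library names number the controls 1, 2 and 4 and the shKAP1 samples 1 to 4. Whether shared numbers mark pairs or batches, and whether the authors' fit used them, is not given. No paired analysis was possible because single libraries have no values here. Depth is unknown, so no limit was computed for genes not listed.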

Other observations

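The E2F motif was also commoner in other lower genes than in higher ones. The 46 genes were left out here, but the other pathway genes, 43 of them lower and 4 higher, were kept where a window was matched. The motif was found in the promoter window of 115 of 1351 listed lower genes, or 8.51%. Among 1259 listed higher genes it was found in 42, or 3.34%, against 3.29% of protein-coding genes. Shares without the other pathway genes were not computed, so the difference is not shown to lie outside replication genes. The CHR element was found in 18.8% of the listed lower genes and in 11.2% of the listed higher genes, against 18.5% of protein-coding genes. The lower genes were thus near that share and the higher genes below it. The CCAAT box was found in 48.7% and 41.5%, against 42.3% of protein-coding genes. These are shares of letters in promoter windows, genes are not independent replicates, and no test was made.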
